A study of Mus musculus with 5 samples.

Results

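The 10 genes described here encode the machinery with which brain cells, microglia above all, read extracellular nucleotides: the ADP receptors P2ry12 and P2ry13, the UDP receptor P2ry6, the UDP-sugar receptor P2ry14, the ATP-gated channels P2rx4 and P2rx7, the adenosine receptors Adora1 and Adora3, and the ectonucleotidases Entpd1 (CD39) and Nt5e (CD73). They were listed by name, as receptors for nucleotides, nucleotide sugars and adenosine or enzymes that cut nucleotides, and not by a cut on their values. Earlier results of these data were known when the list was made. All 10 were found among the 55573 genes of the deposited count tables, and all 10 were among the 23592 genes with enough counts to be tested. Right hemispheres of GL261-bearing mice were sequenced as bulk RNA to ask what ultrasound-mediated blood–brain barrier opening (UMBO) does to gene expression. Every mouse was a C57BL/6 female that had received GL261 glioma cells, carrying a luciferase/mKate2 vector, in the right caudate nucleus-putamen at 7 to 8 weeks of age. Of the 5 mice, 3 were given inVivoPure pH 6.5 Dilution Buffer (vehicle) and 2 were given UMBO, which is low-intensity pulsed ultrasound applied with intravenous microbubbles. Sessions took place on days 21 and 24, and the brain was taken 24 h after the last one. The study's methods give all mice warm saline before anaesthesia. Whether the vehicle mice also received microbubbles or a sham exposure is not given in the sources used here, so the parts of the UMBO procedure cannot be told apart. Each library holds tumour, brain and infiltrating cells together. A lower or higher value can therefore reflect fewer or more cells of a type or less or more RNA per cell, and the 2 cannot be told apart.

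ATP leaks or is released from stretched, damaged or dying cells and is cut by CD39 to ADP and AMP, and AMP is then cut by CD73 to adenosine. Microglia follow ADP gradients with their processes through P2RY12, while UDP acting on P2RY6 triggers phagocytosis. P2RX7 opens at high ATP and starts the NLRP3 inflammasome, P2RX4 opens at lower ATP, and the adenosine receptors A1 and A3 couple to the G protein Gi. P2RY12 and P2RY13 are counted among the genes that mark resting microglia, whereas P2RY6, P2RY14 and the A3 receptor are also found on blood-derived myeloid cells, and the A1 receptor is chiefly neuronal.

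The libraries held between 59736771 and 86164159 counts, and the members between 61 counts (Adora3, lowest library) and 19499 counts (Adora1, highest library), so for most members the number of mice limits the precision more than the depth does. UMBO replicate 2 stood apart: on the first principal component, with 78.7% of the variance, it lay at 133.7, against -68.4 to 17.0 for the other 4 libraries. The 8 monocyte and macrophage markers summed to 42.1, 98.6 and 62.1 CPM in vehicle replicates 1 to 3, to 95.3 CPM in UMBO replicate 1 and to 410 CPM in UMBO replicate 2. The 10 proliferation markers summed to 489 CPM in UMBO replicate 2 and to between 36.2 and 117 CPM in the other libraries, and the 7 neuronal markers to 2733 CPM there and to between 5485 and 8438 CPM elsewhere. The fold changes of the members are therefore also given without that library, or as a range with each library left out. CPM is the count scaled to a common library size by the TMM method, which assumes most genes do not change.

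Several members are neighbours in the genome (GRCm38, GENCODE M21). P2ry14 (chr3:59113855-59153618), P2ry13 (chr3:59207892-59210882) and P2ry12 (chr3:59216272-59262871) stand in a row on the reverse strand, all wholly inside Med12l, which is read from the forward strand, and P2ry13 ends 5389 bases from P2ry12. P2rx7 (chr5:122643911-122691432) and P2rx4 (chr5:122707544-122729738) follow each other on the forward strand with 16111 bases between them. P2ry6 (chr7:100937630-100974649, reverse strand), Adora1 (chr1:134199223-134235431, reverse), Adora3 (chr3:105870858-105908926, forward), Entpd1 (chr19:40612366-40741602, forward) and Nt5e (chr9:88327197-88372092, forward) lie alone. P2ry12 shares 9 exonic bases with Med12l, Adora1 shares 20.1% of its exonic length with Mybph on the opposite strand, and Adora3 shares 20.9% with Tmigd3 on its own strand. Mybph was at 0.267 to 0.727 CPM and Tmigd3 at 2 to 15 counts, far below their partners.

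The bases before the start sites of 3 members are shown because P2ry13 did not share the library order of P2ry14 and Adora3 in the values below, while these 250-base windows hold the same letters. They are RefSeq's for GRCm38.p6, run 5′ to 3′ on the strand of the gene and end at the base before a start site. P2ry13 is at chr3:59210883-59211132 (reverse strand), P2ry14 at chr3:59131329-59131578 (reverse strand, 1 of 4 start sites listed) and Adora3 at chr3:105904171-105904420 (forward strand). Capitals mark GAGGAA or its reverse complement TTCCTC, letters found in sites of PU.1, a factor of the myeloid lineage.
P2ry13: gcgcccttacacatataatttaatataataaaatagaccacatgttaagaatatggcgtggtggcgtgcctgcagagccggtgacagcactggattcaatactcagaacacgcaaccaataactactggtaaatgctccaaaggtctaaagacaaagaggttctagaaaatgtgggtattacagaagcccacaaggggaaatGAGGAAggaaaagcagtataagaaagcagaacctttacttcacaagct
P2ry14: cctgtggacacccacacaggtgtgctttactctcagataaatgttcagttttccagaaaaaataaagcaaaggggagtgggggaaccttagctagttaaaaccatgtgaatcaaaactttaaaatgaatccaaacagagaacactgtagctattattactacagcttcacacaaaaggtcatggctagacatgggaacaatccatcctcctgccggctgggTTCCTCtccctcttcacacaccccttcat
Adora3: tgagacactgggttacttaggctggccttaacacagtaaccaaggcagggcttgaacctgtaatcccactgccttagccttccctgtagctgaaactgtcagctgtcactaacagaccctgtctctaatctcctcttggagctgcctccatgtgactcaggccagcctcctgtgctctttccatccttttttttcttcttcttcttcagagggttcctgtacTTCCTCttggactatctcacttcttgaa
The letters stood 48 bases before the start in P2ry13, 29 bases before it in P2ry14 and 28 bases before it in Adora3. P2ry6 had no entry and was not searched. Over the 9 members with an entry, which have 15 start sites in all, GAGGAA on either strand was found in 7 windows of 4 genes. These were P2ry13, P2ry14, Adora3 and Entpd1, and over the genome 23.2% of 32851 windows held the letters. Of the 7 windows 4 belong to P2ry14, where overlapping windows share 1 match and the letters stand in 3 places, so the windows are not independent. The window of P2ry12 did not hold these letters. The AP-1 letters TGANTCA, which are their own reverse complement and were searched separately, were in 5 windows of 4 genes (P2ry14, P2rx7, Adora1 and Adora3) against 6.75% of all windows. These matches describe letters only.

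Per unit of length, Adora1 and P2ry12 were the most abundant members. Levels were set side by side as TPM, a transcript share per unit of length computed from the counts and the exonic length of each gene. Vehicle means were 94.2 ± 18.6 TPM for Adora1, 39.4 ± 10.4 for P2ry12 and 15.4 ± 2.6 for P2ry13 (SD, n = 3), and the vehicle ranges of these 3 did not overlap. Entpd1 followed at 9.54 ± 2.05, P2rx4 at 7.72 ± 0.855, P2rx7 at 6.81 ± 0.861 and P2ry6 at 4.22 ± 2.27 TPM, and each overlapped its neighbour in this order over the vehicle libraries. Nt5e was at 2.34 ± 0.258 TPM, and its range overlapped that of P2ry6. Adora3 at 1.07 ± 0.6 and P2ry14 at 0.618 ± 0.157 TPM were the lowest and overlapped each other. The order depended in part on which transcript was taken: with the longest annotated transcript of each gene, P2rx4 was at 11.7 TPM and passed Entpd1, and Nt5e was at 4.24 TPM. In UMBO replicate 2 the order changed, with P2ry6 in rank 3 at 16.9 TPM, close to P2ry12 at 18.9 TPM.

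No member passed the threshold between UMBO and vehicle: edgeR's quasi-likelihood test, with Benjamini-Hochberg adjustment over all genes, gave 0 of 10 an adjusted p under 0.05, and 0% of all 23592 genes did (percent called, 0). At an unadjusted p under 0.05 there were 2 members, P2ry6 and P2rx7, both higher, against 7.37% of all genes (5.3% higher and 2.06% lower). The DESeq2 Wald test gave 0 members past its adjusted threshold, against 0.179% of the genes to which it gave an adjusted p, and 1 member (P2ry6) at an unadjusted p under 0.05, against 6.77% of genes. On the log2 scale 7 members were higher and 3 were lower in the UMBO libraries. Their median log2 fold change was 0.44, against 0.01 over all genes tested. In 3 members (P2ry13, P2rx7 and Entpd1) both UMBO values exceeded every vehicle value, against 11.5% of all genes, and in 1 (Nt5e) both lay below, against 11.4%. Without UMBO replicate 2 the median log2 fold change of the members was 0.32, with 0 members at an unadjusted p under 0.05 (1.86% of genes). Without UMBO replicate 1 the median was 0.54, and 3 members passed the adjusted threshold (P2ry6 and P2rx4 higher, P2ry12 lower) where 18.3% of all genes did, a comparison that rests on UMBO replicate 2 alone and assumes that it varies like the vehicle libraries.

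**Figure D1:**
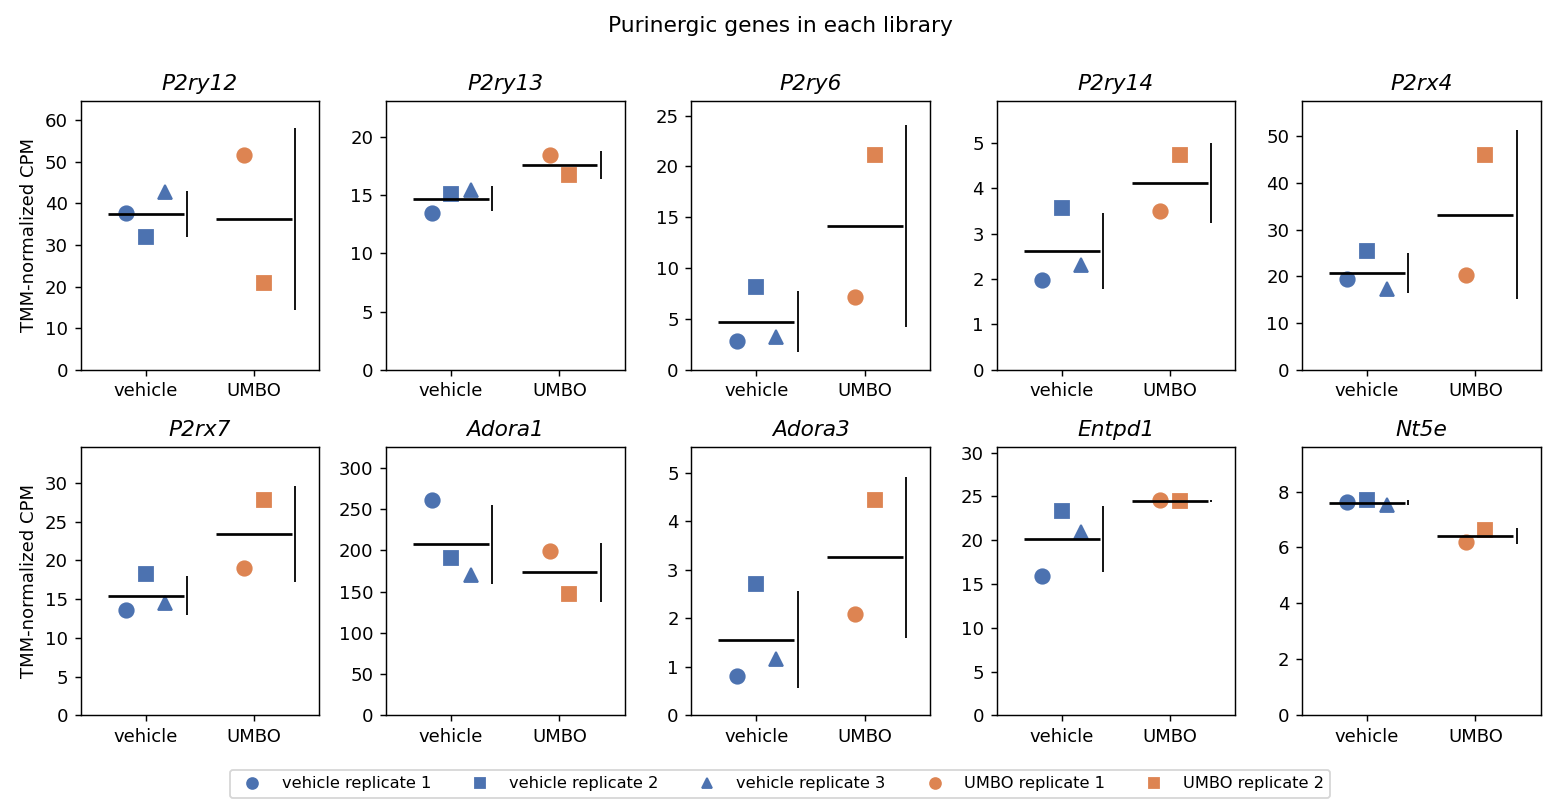
TMM-normalized CPM (y axis, from 0, a scale of its own in each panel) of the 10 purinergic genes in the 3 vehicle and 2 UMBO libraries; points are libraries, horizontal lines are group means and vertical lines are ± 1 SD. P2ry12 is highest in UMBO replicate 1 (51.7 CPM) and lowest in UMBO replicate 2 (20.8 CPM), while P2ry6, P2rx4 and Adora3 are highest in UMBO replicate 2.

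The ADP receptors differed between the UMBO libraries. P2ry12, the receptor through which microglial processes find ADP, was at 37.6, 31.9 and 42.8 CPM in vehicle replicates 1 to 3 and at 51.7 and 20.8 CPM in UMBO replicates 1 and 2. Its highest and its lowest value were thus both in UMBO mice, at 1.38 and 0.556 times the vehicle mean. The means were 37.4 ± 5.46 (SD, n = 3) and 36.2 ± 21.8 CPM (SD, n = 2). This gave a log2 fold change of -0.05 (SE 0.387, 95% interval -0.99 to 0.90), with an edgeR adjusted p of 0.955, and the interval takes in a fall or a rise of nearly 1 log2 unit. It was 0.47 without UMBO replicate 2 and -0.88 without UMBO replicate 1. Med12l, the gene that surrounds it on the other strand, was at 54.7, 40.8 and 65.3 CPM with vehicle and at 44.1 and 18.9 CPM with UMBO. Med12l was also lowest in UMBO replicate 2, but unlike P2ry12 it was not highest in UMBO replicate 1.

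P2ry13, the other ADP receptor of microglia, varied far less. It was at 13.5, 15.1 and 15.5 CPM with vehicle and at 18.4 and 16.7 CPM with UMBO. Both UMBO libraries lay above the vehicle libraries, by a small margin. The means were 14.7 ± 1.06 (SD, n = 3) and 17.6 ± 1.23 CPM (SD, n = 2). The log2 fold change was 0.26 (SE 0.18, 95% interval -0.18 to 0.70), edgeR adjusted p 0.507, and leaving out any 1 library gave 0.16 to 0.33. Although P2ry13 and P2ry12 are neighbours and bind the same ligand, the CPM ratio of P2ry13 to P2ry12 was 0.358, 0.473 and 0.361 with vehicle. With UMBO it was 0.357 and 0.803. The log2 ratio differed by 0.44 between the groups (2-sided exact permutation test over libraries, p = 0.7, where 3 against 2 libraries cannot give less than 0.1). The difference was -0.14 without UMBO replicate 2, so a shifted ratio was seen in 1 mouse only.

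P2ry6, the UDP receptor tied to phagocytosis, had the largest log2 fold change of the members. It was at 2.79, 8.19 and 3.26 CPM with vehicle and at 7.12 and 21.1 CPM with UMBO. The groups overlapped, since vehicle replicate 2 lay above UMBO replicate 1. The means were 4.75 ± 2.99 (SD, n = 3) and 14.1 ± 9.92 CPM (SD, n = 2). P2ry6 thus had a log2 fold change of 1.57 (SE 0.634, 95% interval 0.02 to 3.13), with an edgeR unadjusted p of 0.0476 and an adjusted p of 0.497. It was 0.59 without UMBO replicate 2, 2.13 without UMBO replicate 1 and 2.26 without vehicle replicate 2. Per P2ry12 count, P2ry6 stood at 0.0743, 0.257 and 0.0761 with vehicle and at 0.138 and 1.02 with UMBO, a ratio chosen after the values were seen.

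P2ry14, which senses UDP-glucose and related sugars, was at 1.98, 3.56 and 2.30 CPM with vehicle and at 3.50 and 4.73 CPM with UMBO. UMBO replicate 1 lay just under vehicle replicate 2, so the groups overlapped. Its log2 fold change was 0.65 (SE 0.36), edgeR adjusted p 0.497, and 0.42 without UMBO replicate 2. Of the 3 receptor genes inside Med12l, P2ry12 was thus lowest, P2ry13 second highest and P2ry14 highest in UMBO replicate 2.

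The ATP-gated channels also split. P2rx7, the channel that feeds the inflammasome, was at 13.6, 18.3 and 14.5 CPM with vehicle and at 19.0 and 27.7 CPM with UMBO. Both UMBO libraries were above the vehicle libraries, UMBO replicate 1 only slightly so. The means were 15.5 ± 2.46 (SD, n = 3) and 23.4 ± 6.15 CPM (SD, n = 2). The log2 fold change was 0.60 (SE 0.243, 95% interval 0.00 to 1.19), with an edgeR unadjusted p of 0.0494 and an adjusted p of 0.497, and it was 0.30 without UMBO replicate 2 and 0.82 without UMBO replicate 1.

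P2rx4, its neighbour on chromosome 5, was at 19.4, 25.5 and 17.4 CPM with vehicle and at 20.4 and 46.0 CPM with UMBO. UMBO replicate 1 sat among the vehicle libraries and UMBO replicate 2 far above them. The log2 fold change of 0.68 (SE 0.369, edgeR adjusted p 0.497) was -0.02 without UMBO replicate 2 and 1.12 without UMBO replicate 1, so it rested on 1 mouse. The CPM ratio of P2rx4 to P2rx7 was lowest in UMBO replicate 1 (1.07) and highest in UMBO replicate 2 (1.66), on either side of the vehicle libraries (1.42, 1.39 and 1.20). That ratio was also chosen after the values were seen.

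**Figure D2:**
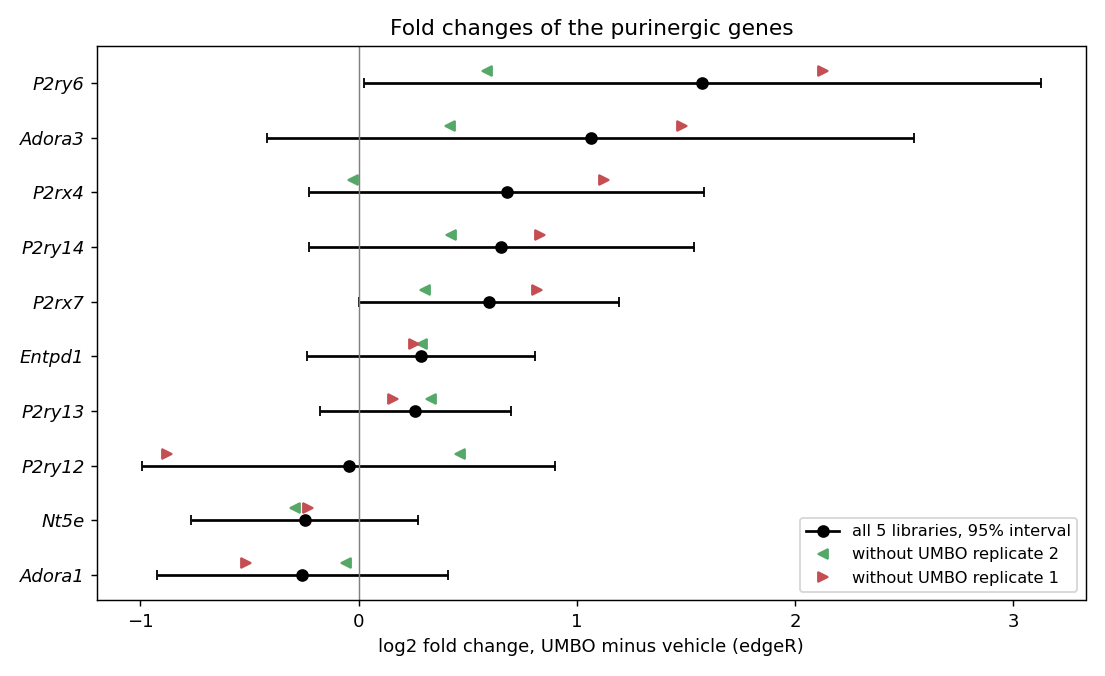
Log2 fold change (UMBO minus vehicle, edgeR, x axis) of each purinergic gene over all 5 libraries (circles with 95% intervals) and with either UMBO library left out (triangles). P2ry12 lies at -0.05 with triangles at 0.47 and -0.88 on either side, P2rx4 lies at 0.68 and at -0.02 without UMBO replicate 2, and the triangles of P2ry13, Entpd1 and Nt5e lie close to their circles.

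Among the nucleotide receptors, the make-up of UMBO replicate 2 stood apart. Of the summed TPM of the 6 P2 receptors, P2ry12 held 56.2, 44.2 and 57.7% with vehicle, against 55.7 and 24.2% with UMBO. P2ry6 held 3.68, 10.0 and 3.87% with vehicle, and 6.77 and 21.7% with UMBO. P2rx4 held 8.48 to 12.8% with vehicle, and 7.95 and 19.4% with UMBO. The share of P2ry13 stayed between 19.6 and 21.1% in every library, and P2ry14 held at most 1.27%. UMBO replicate 1 lay close to vehicle replicates 1 and 3 in the shares of P2ry12, P2ry13 and P2rx7.

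**Figure D3:**
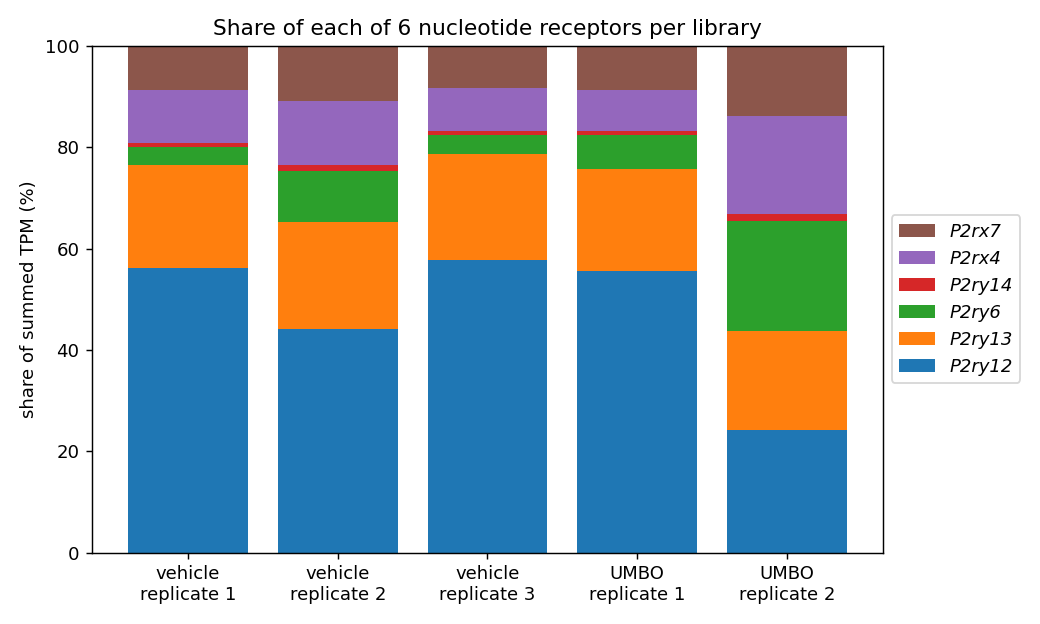
Share of each of 6 nucleotide receptors in their summed TPM (y axis, %) for each library (x axis). P2ry12 holds 44.2 to 57.7% in 4 libraries and 24.2% in UMBO replicate 2, where P2ry6 holds 21.7%, while P2ry13 holds 19.6 to 21.1% throughout.

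The adenosine receptors had opposite signs, with neither past the threshold. Adora1, the inhibitory A1 receptor, was at 261, 191 and 170 CPM with vehicle and at 199 and 148 CPM with UMBO. The groups overlapped, UMBO replicate 2 being lowest. Its log2 fold change was -0.26 (SE 0.273), edgeR adjusted p 0.616, and -0.06 without UMBO replicate 2. Of the 7 neuronal markers 6 were also lower with UMBO. Their median log2 fold change was -0.44, or -0.23 without UMBO replicate 2, and their part in the Adora1 values was not tested.

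Adora3, the A3 receptor of myeloid and mast cells, was at 0.816, 2.69995 and 1.16 CPM with vehicle and at 2.08 and 4.43 CPM with UMBO. Vehicle replicate 2 lay above UMBO replicate 1. Adora3 had a log2 fold change of 1.06 (SE 0.606), edgeR adjusted p 0.497, and 0.42 without UMBO replicate 2. Of the mast cell markers, Cpa3, Mcpt4 and Tpsb2 were each under 1 CPM in every library, and Cpa3 was at 0.120, 0.059 and 0.094 CPM with vehicle against 0.386 and 0.321 CPM with UMBO. All 3 had both UMBO libraries above the vehicle libraries, as did 11.5% of all genes. Their counts were few, those of Cpa3 being 9, 4 and 8 with vehicle and 33 and 21 with UMBO. Kit, the most abundant gene of this list, was at 38.6, 31.7 and 38.1 CPM with vehicle and at 40.5 and 27.1 CPM with UMBO, and the part of mast cells in the Adora3 values was not tested. Of the other adenosine receptors, Adora2a, a receptor of striatal neurons, was at 56.0, 62.0 and 29.5 CPM with vehicle and 25.5 and 41.1 CPM with UMBO, and Adora2b at 2.65, 3.35 and 4.24 against 4.39 and 4.05 CPM.

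The ectonucleotidases were close together in the UMBO libraries and had opposite signs. Entpd1, which encodes CD39 and removes phosphates from ATP and ADP, was at 16.0, 23.4 and 21.0 CPM with vehicle and at 24.6 and 24.4 CPM with UMBO. Both UMBO libraries were above the vehicle libraries, barely above vehicle replicate 2. The means were 20.1 ± 3.78 (SD, n = 3) and 24.5 ± 0.0787 CPM (SD, n = 2). For Entpd1 the log2 fold change was 0.29 (SE 0.213), with an edgeR adjusted p of 0.521, or 0.14 to 0.43 with any 1 library left out.

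Nt5e, which encodes CD73 and makes adenosine from AMP, was at 7.61, 7.68 and 7.52 CPM with vehicle and at 6.21 and 6.61 CPM with UMBO. It was the only member with both UMBO libraries under every vehicle library. The means were 7.61 ± 0.0802 (SD, n = 3) and 6.41 ± 0.282 CPM (SD, n = 2), a gap wider than the spread within either group. That spread was below the counting error, which was 0.318 CPM per vehicle library and 0.294 CPM per UMBO library on average. The log2 fold change was -0.25 (SE 0.213, 95% interval -0.77 to 0.27), and ranged from -0.29 to -0.21 with each library left out. In edgeR's quasi-likelihood test, which shares its estimate of spread over genes, the adjusted p was 0.556. The CPM ratio of Nt5e to Entpd1, chosen after the values were seen, was 0.477, 0.329 and 0.358 with vehicle and 0.253 and 0.270 with UMBO.

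Many of these receptors are read as microglial, so they were set against microglial markers that are not members. The 10 markers (among them Tmem119, Cx3cr1 and Csf1r) had a median of 0.69 on the log2 fold scale. Of these 9 were higher and 1 was lower (Sall1, -0.07). At an unadjusted edgeR p under 0.05 there were 7, all higher, against 5.3% of all genes, and 0 passed the adjusted threshold. In 9 both UMBO libraries exceeded every vehicle library, against 11.5% of all genes. Without UMBO replicate 2 the median of the markers was 0.60, so it did not hang on 1 mouse. That of the monocyte and macrophage list did, at 2.23 and at 0.24 without that library. The mean log2 CPM of the microglial markers relative to the vehicle mean was -0.24, 0.21 and 0.03 with vehicle and 0.71 and 0.76 with UMBO. Of the 10 purinergic genes, 8 were lower with UMBO relative to this mean in the same library. The mean itself was higher in both UMBO libraries, so a gene that rose less than the mean also came out lower. How many of all genes were lower by this measure was not counted, so the 8 cannot be set apart from other genes. Relative to the same mean, both UMBO libraries lay below every vehicle library in 4 members (P2ry13, Adora1, Entpd1 and Nt5e). However, 62% of all genes did so too. In 0 members both lay above, against 0.636% of all genes.

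Relative to the microglial markers, P2ry13 was lower by 0.47 on the log2 scale and Entpd1 by 0.43, whereas both were higher in CPM. For each of these and for Nt5e and Adora1 the 2-sided exact permutation test gave p = 0.1, the smallest that 10 groupings allow, and 0.25 after adjustment over the 10 members. P2ry12 differed by -0.91 (exact permutation p = 0.3), with values of 0.18, -0.50 and 0.11 with vehicle and -0.30 and -1.66 with UMBO. Without UMBO replicate 2 this was -0.23. P2ry6 differed by 0.81 (exact permutation p = 0.4), which was 0.049 without UMBO replicate 2, and Adora3 by 0.40 (exact permutation p = 0.5). P2rx4, P2rx7 and P2ry14 differed by -0.15, -0.15 and -0.05, and each of these 3 differences changed sign without UMBO replicate 1.

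**Figure D4:**
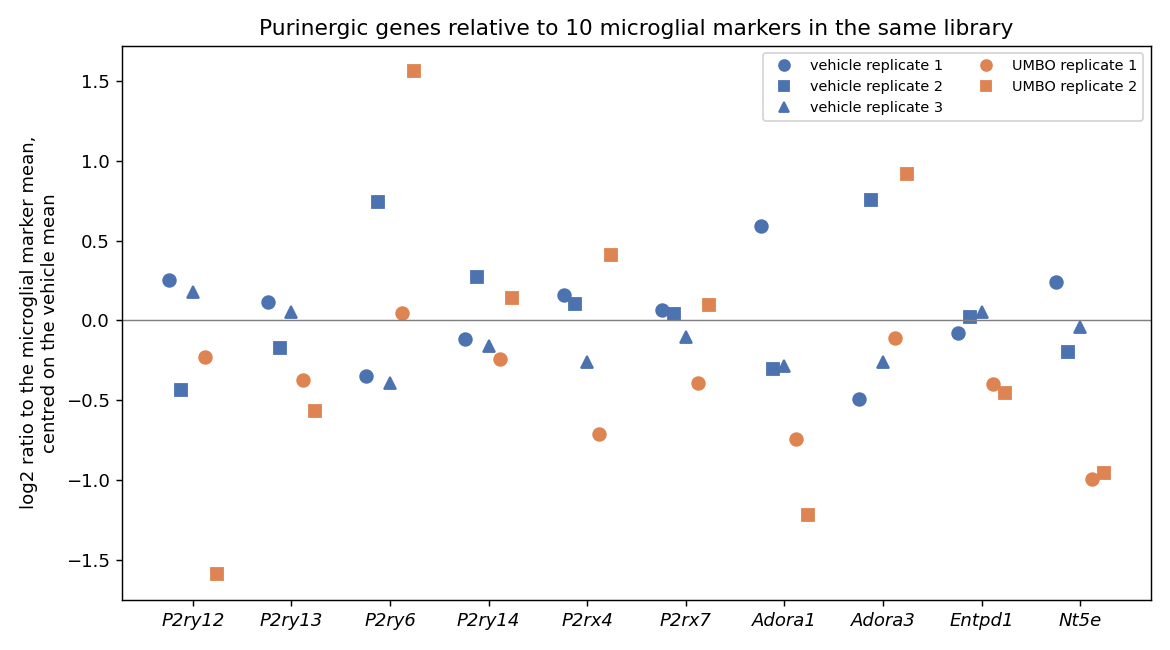
Log2 ratio of each purinergic gene to the mean of 10 microglial markers in the same library, centred on the vehicle mean (y axis); points are libraries. Both UMBO libraries lie below every vehicle library for P2ry13, Adora1, Entpd1 and Nt5e, and the UMBO libraries are furthest apart for P2ry12 and P2ry6.

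P2ry6, Adora3 and P2ry14 had 1 library order in common. From low to high it was vehicle replicate 1, vehicle replicate 3, UMBO replicate 1, vehicle replicate 2, UMBO replicate 2. The libraries stood in the same order on the first principal component of all genes tested (-68.4, -68.2, -14.1, 17.0 and 133.7). Pnp, Slc29a1, Slc28a2, Pycard, Il1b and Gsdmd of the pathway lists had it as well, so this order is not particular to the receptors. The share of all genes with this order was not counted. The summed monocyte and macrophage markers, of which Lyz2 makes up most, had this order too, as did 4 of the 8 markers taken singly, while Ccr2, F13a1, Chil3 and Itga4 had others. Lyz2, the most abundant of those markers, was at 13.7, 65.0 and 28.9 CPM with vehicle and at 60.3 and 294 CPM with UMBO, and Ccr2 at 1.16, 3.50 and 2.35 against 1.90 and 11.7 CPM. The part of these cells in the values of the 3 receptors was not tested. The gene whose centred log2 CPM lay nearest to Adora3 over the 5 libraries was Ctss, a lysosomal protease of myeloid cells (root mean square difference 0.0527), and the nearest to P2ry6 were Rab20 (0.0336) and Hlx (0.0503). Nearest to P2rx4 was Il4i1 (0.0156), to P2rx7 Mical1 (0.0173), to P2ry14 Hfe (0.0463) and to P2ry12 Disp3 (0.0534). Among the members, the closest pairs were P2ry13 with Entpd1 (0.13) and P2ry14 with P2rx7 (0.147). With 5 libraries and 23592 genes, near neighbours of this kind are found for any pattern and are given as a description.

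The rest of the pathway, in 44 genes of 5 lists, held no gene past the adjusted threshold either. Of the 41 tested (P2ry4, Entpd8 and Panx3 had too few counts), 30 were higher and 11 lower, their median being 0.33, and 3 were at an unadjusted edgeR p under 0.05, all higher, against 7.37% of all genes. In 10 both UMBO libraries exceeded the vehicle range (11.5% of all genes) and in 3 (P2rx2, Entpd3 and Stim1) both lay below (11.4%). P2ry2, the ATP and UTP receptor, was at 0.535, 0.949 and 0.661 CPM with vehicle and 1.15 and 2.20 CPM with UMBO, a log2 fold change of 1.22 (SE 0.437).

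Downstream of the receptors, 9 of 11 signalling partners were higher, with a median log2 fold change of 0.77 that was 0.24 without UMBO replicate 2. Itgb1, the integrin subunit through which processes extend, was at 78.4, 110 and 90.9 CPM with vehicle and at 122 and 196 CPM with UMBO (log2 fold change 0.77, SE 0.271). Pycard, the inflammasome adaptor downstream of P2RX7, was at 3.24, 9.14 and 4.61 CPM with vehicle and 8.83 and 28.1 CPM with UMBO (log2 fold change 1.71, SE 0.613). Pycard overlapped between the groups and Itgb1 did not. Nlrp3 itself was at 1.22, 1.57 and 1.89 against 1.86 and 3.73 CPM, and Il1b at 0.548, 2.27 and 0.579 against 1.18 and 6.75 CPM. Kcnk13, the potassium channel of microglial surveillance, was at 8.71, 9.20 and 9.39 against 9.79 and 10.4 CPM, a log2 fold change of 0.15.

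Adenosine handling was mixed. Of the 8 uptake and turnover genes 6 were higher, with Ada, adenosine deaminase, at 0.562, 0.771 and 0.437 CPM with vehicle and 0.655 and 2.67 CPM with UMBO, and Adk, adenosine kinase, at 43.6, 39.6 and 43.8 against 48.8 and 35.9 CPM. The equilibrative transporter Slc29a1 was at 25.3, 32.9 and 29.0 against 31.4 and 50.7 CPM. UMBO replicate 1 lay within the vehicle range for Ada and Slc29a1, UMBO replicate 2 lay above it, and Adk had the UMBO libraries on either side of that range. For the 6 other ectonucleotidases tested the median log2 fold change was 0.15, with Entpd3 at -0.50 and Alpl, tissue-nonspecific alkaline phosphatase, at -0.52. The 5 release genes tested had a median of 0.21, and Panx1, the ATP-release channel, was at 15.8, 17.5 and 16.2 CPM with vehicle and 20.1 and 18.03 CPM with UMBO, above the vehicle range in both. Panx2 was at 94.7, 84.0 and 95.6 against 93.3 and 49.9 CPM.

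**Figure D5:**
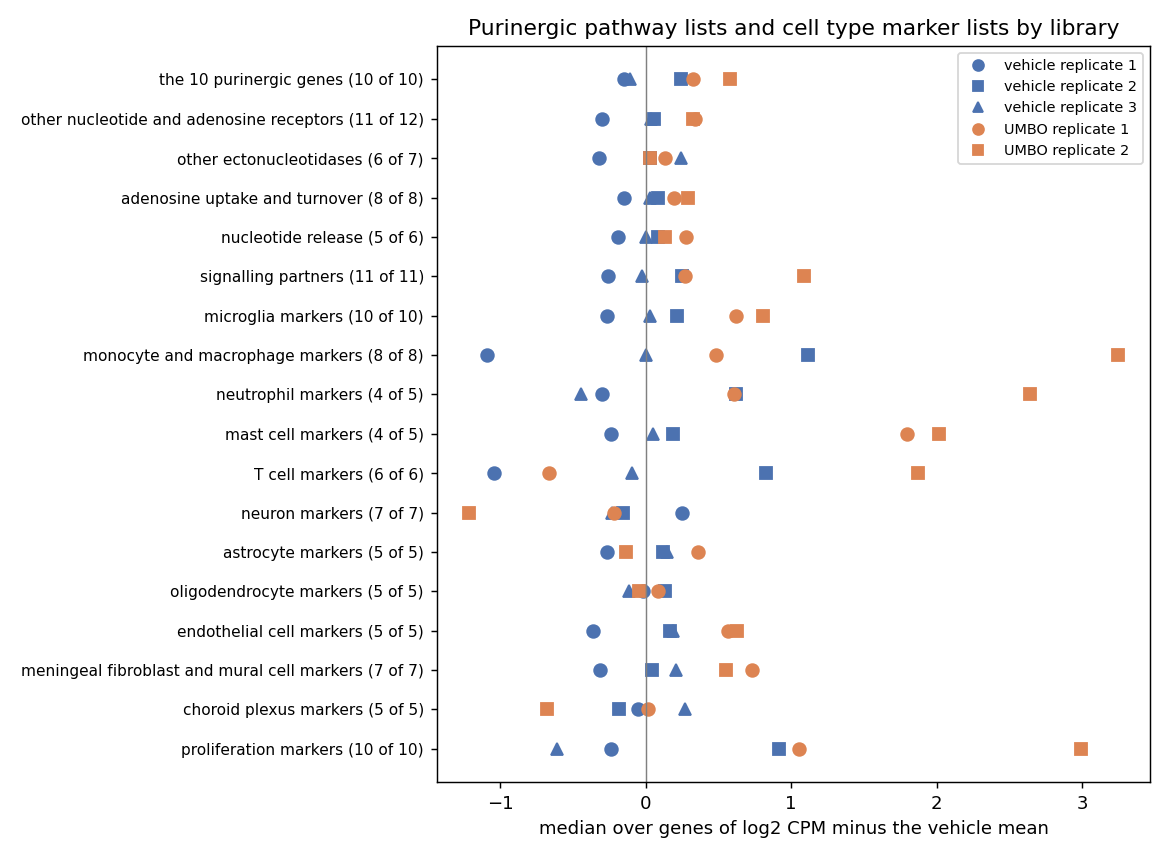
Median over the genes of each list of log2 CPM minus the vehicle mean (x axis) for the purinergic genes, 5 further pathway lists and 12 marker lists, with tested and listed genes in brackets; points are libraries. UMBO replicate 2 lies far right for the monocyte and macrophage (3.25) and proliferation markers (2.99) and far left for the neuronal markers (-1.21), while the purinergic genes lie at 0.32 and 0.58 in the UMBO libraries.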

How the data were processed

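The authors mapped the reads to GRCm38 with STAR 2.7.2a and deposited raw counts per gene, 1 table per library, without normalization; tool and build are from the paper and the submitters' processing notes. The annotation release and the strand setting of the counting are not given in the sources used here, so reads from genes that overlap on opposite strands cannot be told apart. Libraries were made from extracted RNA of the right hemisphere with a SMARTer mRNA-seq kit. Groups and replicate numbers came from the labels, 3 vehicle and 2 UMBO libraries from 5 mice; the study's methods speak of a larger number of mice, and a further library was not analysed here. P-values thus measure the spread between these mice. Every pair of libraries differed by more than sampling noise (chi-square per gene 58.1 to 727).

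Symbols, positions and lengths were taken from GENCODE M21, in which 55480 of 55573 gene identifiers matched. Counts were scaled by TMM, filtered with filterByExpr and compared in R 4.3.3 with edgeR 4.0.16 (quasi-likelihood F test); p-values were adjusted by Benjamini-Hochberg over 23592 genes, with a threshold of 0.05. Log2 CPM used a prior count of 2. TPM was computed from counts and union exonic length. Log2 ratios were compared by exact permutation of the libraries (2-sided, 10 groupings). Scripts were tested on simulated counts. For the edgeR comparison these held 4-fold changes, and a pass was required only at a spread between libraries far below that of these data (common dispersion 0.118). The test thus checks the code and not the power with these mice. Sequences were read from RefSeq promoters of GRCm38.p6, in which 9 of the 10 members matched, all but P2ry6.

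Named genes were all members, genes that overlap a member, and genes nearest to a member in centred log2 CPM. Of some fixed lists, but not of each, the most abundant gene or that with the smallest p was named. Others were named after their values were seen, namely Pycard, Pnp, Slc29a1, Slc28a2, Gsdmd, P2rx2, Stim1, Cpa3, Mcpt4, F13a1 and Itga4. So were Nlrp3, Il1b, Kcnk13, Ccr2, Adora2b, Panx1, Panx2, Alpl and the microglial markers. Members and lists were chosen with earlier results of these data known. Alternatives were DESeq2 size factors, library size alone, no filter, CPM of at least 1 in 2 libraries, the DESeq2 1.42.0 Wald test, the replicate number as a block, the longest transcript for TPM, a prior count of 0.5, the median of the microglial markers or 4 of them only as reference, and each library left out in turn.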

Additional observations from a re-analysis of the deposited data

How the results depend on the processing

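The sign of P2ry12 was the least settled of the members: its log2 fold change was 0.044 with library size alone, a scaling that moved the median of all genes from 0.01 to 0.13, and ranged from -0.88 to 0.47 with each library left out, positive without vehicle replicate 3 (0.06) and without UMBO replicate 2. P2rx4 ranged from -0.024 to 1.12. The other 8 members kept their sign under every alternative. Members past the adjusted threshold ranged from 0 to 3, and past an unadjusted 0.05 from 0 to 5, with each library left out (5 without UMBO replicate 1, where 41% of all genes were). The latter count was 0 with a CPM of at least 1 in 2 libraries (P2ry6 at an unadjusted edgeR p of 0.0541 and P2rx7 at 0.052). The share of all genes was not counted for that filter. The count of members was 1 with the DESeq2 Wald test (6.77% of all genes) and 3 without vehicle replicate 2 (P2ry6, P2rx7 and Adora3, against 11.6% of all genes). It was also 0 without vehicle replicate 1 (1.28% of all genes), without vehicle replicate 3 (1.88%) and without UMBO replicate 2 (1.86%). With 1 vehicle library left out, members with both UMBO libraries above the remaining vehicle libraries ranged from 3 to 7. The 7 were found without vehicle replicate 2, where 30.1% of all genes did so. Without UMBO replicate 1, UMBO replicate 2 alone lay above every vehicle library in 7 members and in 42.2% of all genes. Without UMBO replicate 2, UMBO replicate 1 alone did so in 4 members and in 18.6% of all genes. The log2 difference of P2ry13 to P2ry12 ranged from -0.14 to 1.03. Relative to the microglial markers, the log2 difference with each library left out ranged from -1.59 to -0.23 for P2ry12, from 0.049 to 1.56 for P2ry6, from -0.24 to 0.14 for P2ry14, from -0.71 to 0.41 for P2rx4, from -0.39 to 0.098 for P2rx7 and from -0.11 to 0.92 for Adora3. The last 4 took the opposite sign without UMBO replicate 1 (P2ry14, P2rx4, P2rx7), without vehicle replicate 2 (P2ry14, 0.084) and without UMBO replicate 2 (Adora3). The causes were not tested.

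With the replicate number as a block, 1 member passed the adjusted edgeR threshold (P2ry6, log2 fold change 1.36, adjusted p 0.00349) and 4 an unadjusted one, among 9.91% and 26% of all genes. Only 2 numbers are shared between the groups, with correlations of deviations of 0.453 and 0.76, and nothing in the labels says that a number marks a shared cage, day or litter, so the samples share only a number.

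With 3 against 2 mice, the interval reached about 1 log2 unit either way for P2ry12. It was wider for P2ry6 (0.02 to 3.13) and Adora3 (-0.42 to 2.55). Differences of this size, and smaller ones, can thus go undetected. The smallest edgeR adjusted p over all genes tested was 0.497. Counting error was smaller than the spread between mice except for Nt5e in both groups and Entpd1 in the UMBO group.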
